A study of Mus musculus with 12 samples.

Results

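The miRNAs miR-451, miR-144 and miR-486 are known as miRNAs of red blood cells. The arrays of this mouse study of form-deprivation myopia carried entries named for the first 2 of them. Every array entry with a name beginning mmu-miR-451, mmu-miR-144 or mmu-miR-486 was taken. There were 2 such entries among the 696 mouse miRNA names, mmu-miR-451 and mmu-miR-144-3p, while 0 names began with mmu-miR-486. Another entry outside this rule, mmu-miR-3107-5p, is described beside them because the probe annotation in the array files also gives its probes to miR-486-5p. After quantile normalization the values of mmu-miR-451 were about 4-fold higher in the sclera than in the retina. Without normalization this difference was smaller and did not pass the test. The differences of mmu-miR-451 between form-deprived and control eyes did not pass the test. The signal of mmu-miR-144-3p lay at the detection limit of the arrays.

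Mature red blood cells have no nucleus, but they keep the small RNAs made in their precursors. The genes of miR-144 and miR-451 are neighbours that are transcribed together under the erythroid transcription factor GATA1, and both miRNAs accumulate as red blood cells mature. The precursor of miR-451 is unusual in that it is cut by the Argonaute protein AGO2 and bypasses Dicer. miR-486 is also abundant in red blood cells, but it is made in muscle as well, from an intron of the ankyrin 1 gene. As dissected eye tissue holds vessels filled with blood, these miRNAs are often read as a measure of blood in a tissue sample.

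The sequences below show what each entry measures. The mature miRNAs are those of RefSeq (GRCm38.p6, read on the plus strand of chromosome 11), with the seed, bases 2 to 8, in capitals.
mmu-miR-451a: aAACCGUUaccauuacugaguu
mmu-miR-144-3p: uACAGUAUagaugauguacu
miR-451a lies at chr11:78073186-78073207 and miR-144-3p at chr11:78073047-78073066. Their hairpin genes, Mir144 and Mir451a, are separated by 99 bases. Each seed occurred in 1 mature miRNA of the RefSeq table only, so that these miRNAs share their locus but not their seed. RefSeq also places Mir451b on the opposite strand over the same 72 bases as Mir451a, with a mature miRNA of a different sequence. Each entry was measured by 2 probes, printed as 10 spots each.
mmu-miR-451, longer probe: aactcagtaatggtaacggttt
mmu-miR-451, shorter probe: aactcagtaatggtaacggtt
mmu-miR-144-3p, longer probe: agtacatcatctatactgta
mmu-miR-144-3p, shorter probe: agtacatcatctatactgt
mmu-miR-3107-5p, longer probe: ctcggggcagctca
mmu-miR-3107-5p, shorter probe: ctcggggcagctc
The probes of mmu-miR-451 were complementary to miR-451a over 22 and 21 bases, and those of mmu-miR-144-3p to their miRNA over 20 and 19 bases. The probes of mmu-miR-3107-5p were 14 and 13 bases long, and the array annotation (mm9) places them at chr8:24253067-24253080. Since both miRNAs are given for these probes, signal from miR-3107-5p cannot be told apart from signal from miR-486-5p. The 5' arm of miR-144 had no entry in these files.

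The tissues came from C57BL/6J mice and made up 4 groups of 3 arrays each, with retina and sclera of both myopic and control eyes. The myopic eyes were right eyes that had worn a diffuser for 10 days from the age of 24 days, and the controls were the untreated left eyes, taken at the age of 34 days. The methods describe each sample as a pool of tissue from 3 eyes, while the sample labels name single mice, here called pools 1 to 3. Each slide carried the 4 arrays of 1 pool number. The methods used here mention no perfusion, so that blood in the vessels may be part of every pool. Arrays of a group also shared their place on the slide, and an effect of that place cannot be told apart from the group. Between 353 and 401 miRNAs were detected on the retina arrays and between 274 and 317 on the sclera arrays, and the summed signal of all mouse miRNAs was 591608 to 832784 in the retina and 200662 to 382687 in the sclera. The control sclera array of pool 3 had the lowest values of both.

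mmu-miR-451 was detected on all 12 arrays. Its total gene signal, which is the summed intensity of the detected probes without normalization, was 257, 292 and 371 in the control retina of pools 1, 2 and 3. It was 340, 555 and 361 in the myopic retina. Thus the myopic array was the brighter of the pair in pools 1 and 2, and the dimmer in pool 3. The control sclera arrays had total gene signals of 733, 827 and 286, and the myopic sclera arrays of 776, 712 and 522. All sclera arrays but the control array of pool 3, the dimmest sclera array over all miRNAs, were therefore above the median of the retina arrays, 350. The myopic sclera array of pool 3 (522) was still below the myopic retina array of pool 2 (555). The error of the total gene signal, as given by the image analysis, was 7.29% to 7.38% of the signal. The spots of a probe varied with a coefficient of variation between 1.75% and 5.19%, and the longer probe was the brighter on all 12 arrays. Between pools the total gene signal had an SD of 58.7 around a mean of 307 in the control retina, and of 289 around a mean of 615 in the control sclera.

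After quantile normalization, which gives all arrays the same distribution of values, the log2 signal of mmu-miR-451 was 7.45, 7.78 and 8.04 in the control retina and 7.77, 8.19 and 8.08 in the myopic retina. The control sclera arrays were at 9.81, 9.76 and 9.81, and the myopic sclera arrays at 10.00, 10.13 and 9.91. The retina and sclera arrays did not overlap, with at most 8.19 in the retina and at least 9.76 in the sclera. All 6 sclera arrays lay above all 6 retina arrays for 24.8% of the 443 miRNAs tested. The means of the groups were 7.75 ± 0.30, 8.01 ± 0.22, 9.80 ± 0.027 and 10.01 ± 0.11 (SD, n = 3) in the order control retina, myopic retina, control sclera and myopic sclera. As a share of the summed signal of all mouse miRNAs, mmu-miR-451 made up 0.0420% to 0.0667% in the retina and 0.143% to 0.252% in the sclera.

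**Figure D1:**
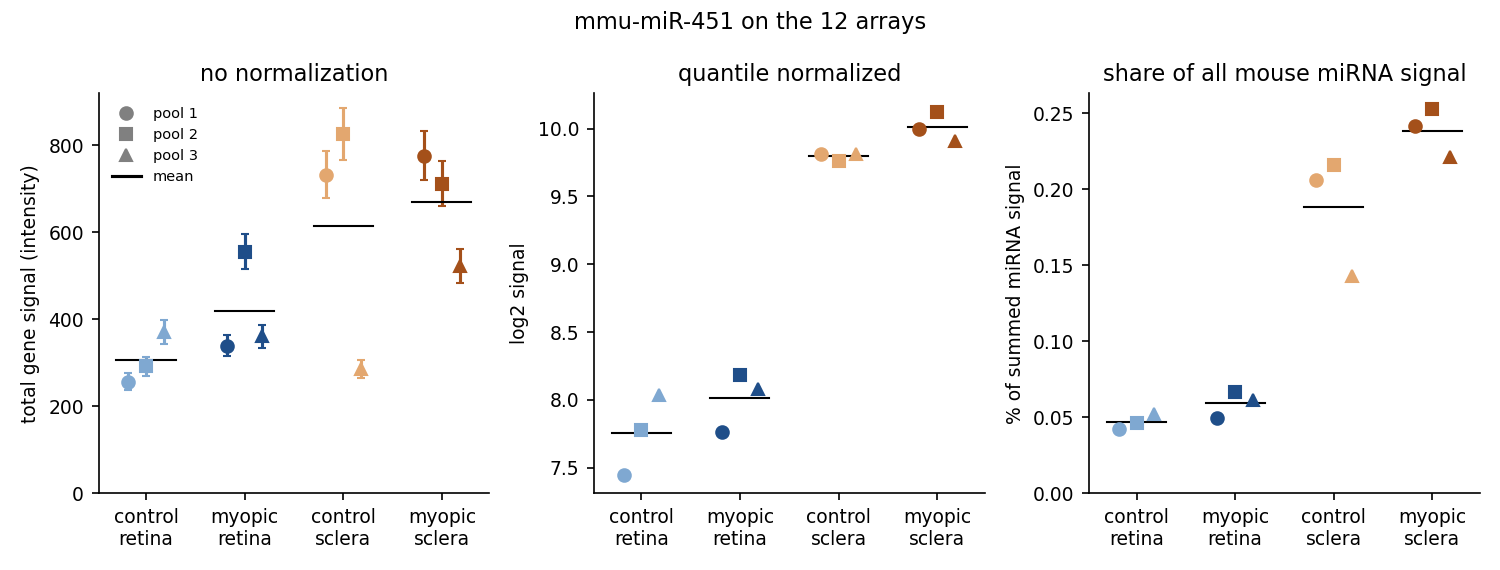
mmu-miR-451 on each array by group, as total gene signal with the error given by the image analysis (left), as quantile-normalized log2 signal (middle) and in percent of the summed signal of all mouse miRNAs (right). Marker shapes are pools and black lines are group means. In the middle panel the sclera arrays lie at 9.76 or above and the retina arrays at 8.19 or below. On the left, by contrast, the control (286) and myopic (522) sclera arrays of pool 3 lie within the range of the retina arrays.

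The comparison of the tissues addresses how far the sclera and retina pools differ in these red cell miRNAs. In control eyes mmu-miR-451 was 4.12-fold higher in the sclera than in the retina (log2 fold change 2.04, SE 0.17, limma adjusted p = 4.8e-06). In form-deprived eyes it was 4.0-fold higher (log2 fold change 2.00, SE 0.17, limma adjusted p = 4.3e-06). The 95% intervals were 3.15- to 5.38-fold and 3.06- to 5.22-fold. Within each pool number the log2 difference between sclera and retina ranged from 1.77 to 2.37 and was positive in 6 of 6 pairs. 1 of the 2 members passed the test (an adjusted p below 0.05 with at least a 2-fold change) in each of these comparisons, against 23.0% of all tested miRNAs called as higher in the control sclera and 26.4% in the myopic sclera. Differences between the tissues were common on these arrays, with 50.6% and 58.9% of the miRNAs called in either direction. In such bulk samples, more cells of a type and more RNA per cell cannot be told apart.

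The size of the difference depended on how the arrays were scaled, since the sclera arrays were dimmer as a whole. Among the 246 miRNAs detected on all arrays, the median log2 difference between sclera and retina without normalization was -1.17 in control eyes and -1.58 in form-deprived eyes. Without normalization mmu-miR-451 differed by 0.88 and 0.69 on the log2 scale, and neither difference passed the test (limma adjusted p = 0.090 and 0.15). These differences were 2.05 and 2.27 above the median of the commonly detected miRNAs. With each array scaled to its 75th percentile, the log2 differences were 1.92 and 1.88 and both passed. In the log2 values deposited by the authors, all 6 sclera arrays (9.72 to 10.16) were above all 6 retina arrays (7.30 to 8.06). A background correction by normexp with an added offset of 50, which raises dim values, was run on the mean signals of all spots. It gave smaller log2 differences of 1.35 and 1.45, and both passed the test. Without any 1 array the log2 difference remained between 1.90 and 2.19 in control eyes and between 1.91 and 2.15 in form-deprived eyes.

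**Figure D2:**
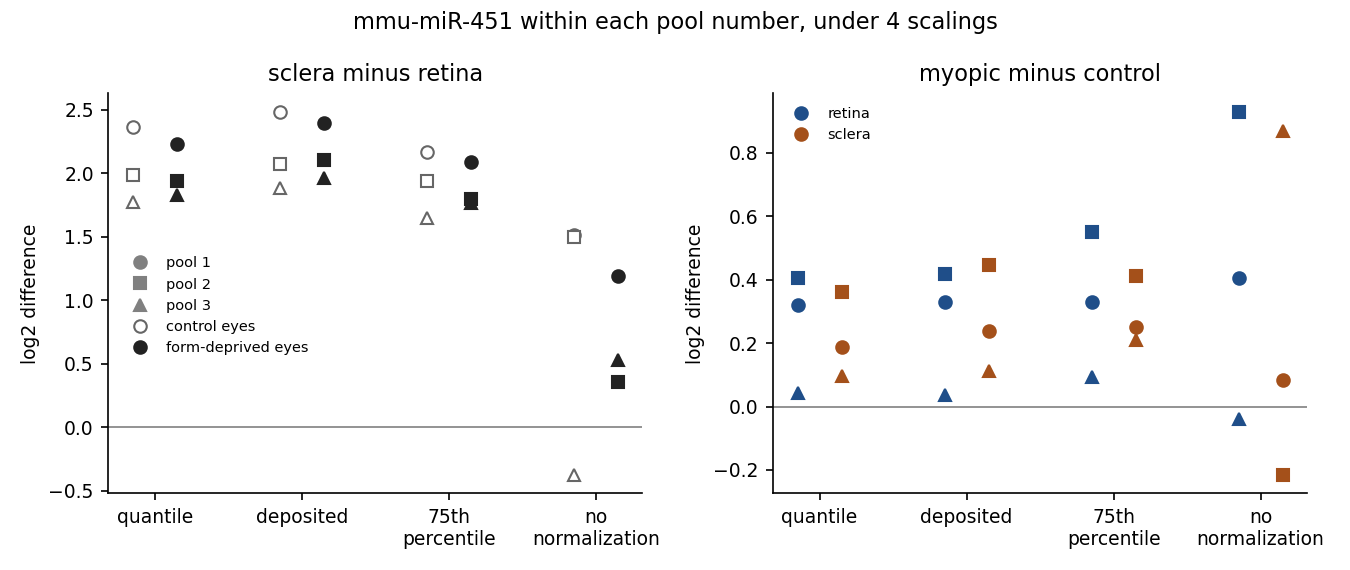
Log2 differences of mmu-miR-451 within each pool number, sclera minus retina (left) and myopic minus control (right), under 4 scalings on the x axis. Each point is a pair of arrays of a slide, marker shapes are pools, and colours or fills give the eye or the tissue. The sclera minus retina difference is positive in 6 of 6 pairs under each normalized scale and in 5 of 6 without normalization, and the myopic minus control difference in 6 of 6 and 4 of 6 pairs.

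Form deprivation was compared with the control eye within each tissue. In the retina, mmu-miR-451 was 7.45, 7.78 and 8.04 in the control pools and 7.77, 8.19 and 8.08 in the myopic pools, and the groups overlapped. The fitted log2 fold change was 0.26 (SE 0.17, limma adjusted p = 0.35), with a 95% interval of -0.13 to 0.64. In the sclera it was 0.21 (SE 0.17, limma adjusted p = 1, unadjusted p = 0.24), with a 95% interval of -0.17 to 0.60. The 3 myopic sclera arrays were all above the 3 control sclera arrays, which held for 2.93% of all tested miRNAs. 0 of the 2 members were called in either tissue, where 0.226% of the miRNAs were called in the retina and 0.00% in the sclera. At an unadjusted p under 0.05 there were 130 miRNAs in the retina (29.3%) and 13 in the sclera (2.93%), mmu-miR-451 and mmu-miR-144-3p not among them.

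After quantile normalization the myopic array was above its control in each pair. The myopic minus control log2 difference of mmu-miR-451 was 0.32, 0.41 and 0.042 in the retina of pools 1, 2 and 3, and 0.19, 0.36 and 0.096 in the sclera. It was thus positive in 6 of 6 pairs, which was so for 2 of the 443 miRNAs tested (0.451%). A miRNA undetected on both arrays of a pair could not count here, and 246 of the 443 were detected on all arrays. Among these 246 the median log2 difference between myopic and control retina was -0.21. The share of 0.451% is for quantile-normalized values. In pool 3 the differences of mmu-miR-451 were the smallest in both tissues. All 6 differences were below 0.5 on the log2 scale. The deposited log2 values and the 75th percentile scaling also had positive differences in 6 of 6 pairs, from 0.035 to 0.44 and from 0.091 to 0.55. Without normalization the differences ranged from -0.22 to 0.93 and were positive in 4 of 6 pairs. The responses of the retina and the sclera differed by 0.041 on the log2 scale (SE 0.24, limma adjusted p = 0.92), with a 95% interval of -0.50 to 0.59, and 0 of the 2 members were called for this difference (0.226% of all tested miRNAs).

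**Figure D3:**
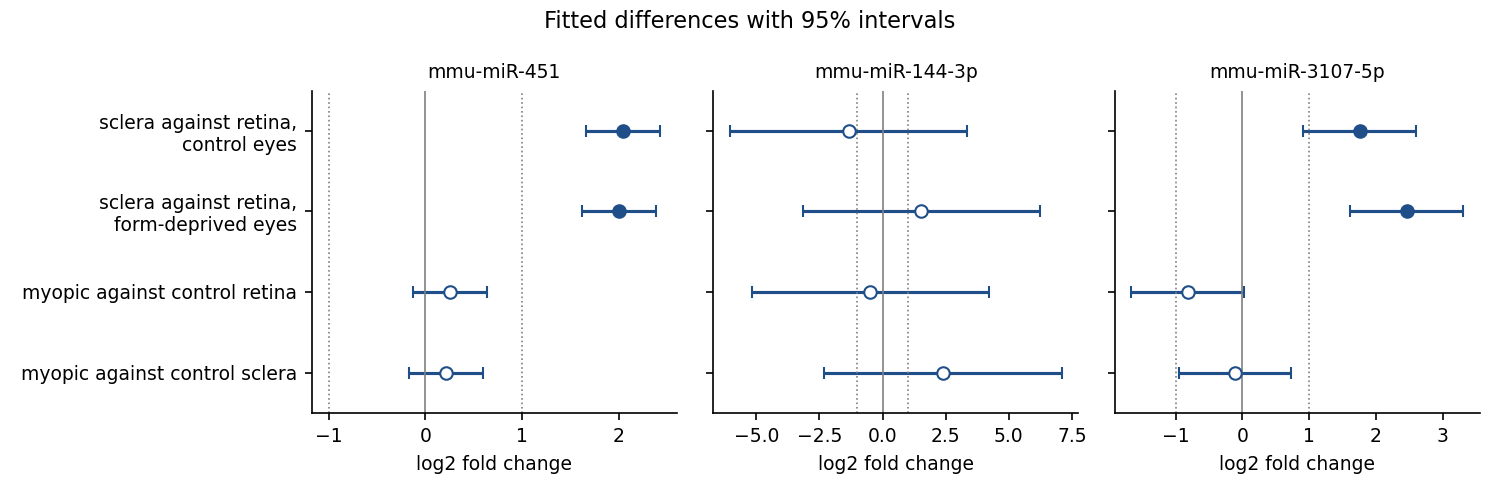
Fitted log2 fold changes (x axis) with 95% intervals for the 4 comparisons (y axis) and the 3 entries, from limma on quantile-normalized values of 12 arrays. Filled points passed the test, and dotted lines mark a 2-fold change in either direction. The intervals of mmu-miR-451 are narrow (SE 0.17), while those of mmu-miR-144-3p (SE 2.09) cover several log2 units in each comparison.

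mmu-miR-144-3p, made from the same locus as miR-451, was detected on 8 of 12 arrays. Its total gene signal was 8.32 and 14.7 in the control retina of pools 2 and 3, and pool 1 was undetected. In the myopic retina it was 7.24, 11.4 and 7.41. In the control sclera it was 7.40 in pool 1 and undetected in pools 2 and 3. In the myopic sclera it was 13.5 and 17.7 in pools 1 and 2 and undetected in pool 3. The detected values thus ranged from 7.24 to 17.7, and undetected arrays occurred in both tissues.

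The detection of mmu-miR-144-3p rested on a narrow margin. A probe counted as detected when its signal was over 3 times its error, and the brighter probe of mmu-miR-144-3p reached between 0.59 and 4.0 times its error. On 5 of the 8 arrays with a detection, a single probe passed, and the total gene signal holds that probe alone. On the control retina array of pool 3 and the myopic sclera arrays of pools 1 and 2 both passed, and these 3 arrays had the highest total gene signals. The signals of both probes together, passing or not, ranged from 1.70 to 20.6 and were 11.3 on the control sclera array of pool 2, which was listed as undetected. Depth of signal therefore limits every value of this miRNA. For comparison within the same arrays, the probes of mmu-miR-451 were at 9.73 to 9.99 times their error.

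**Figure D4:**
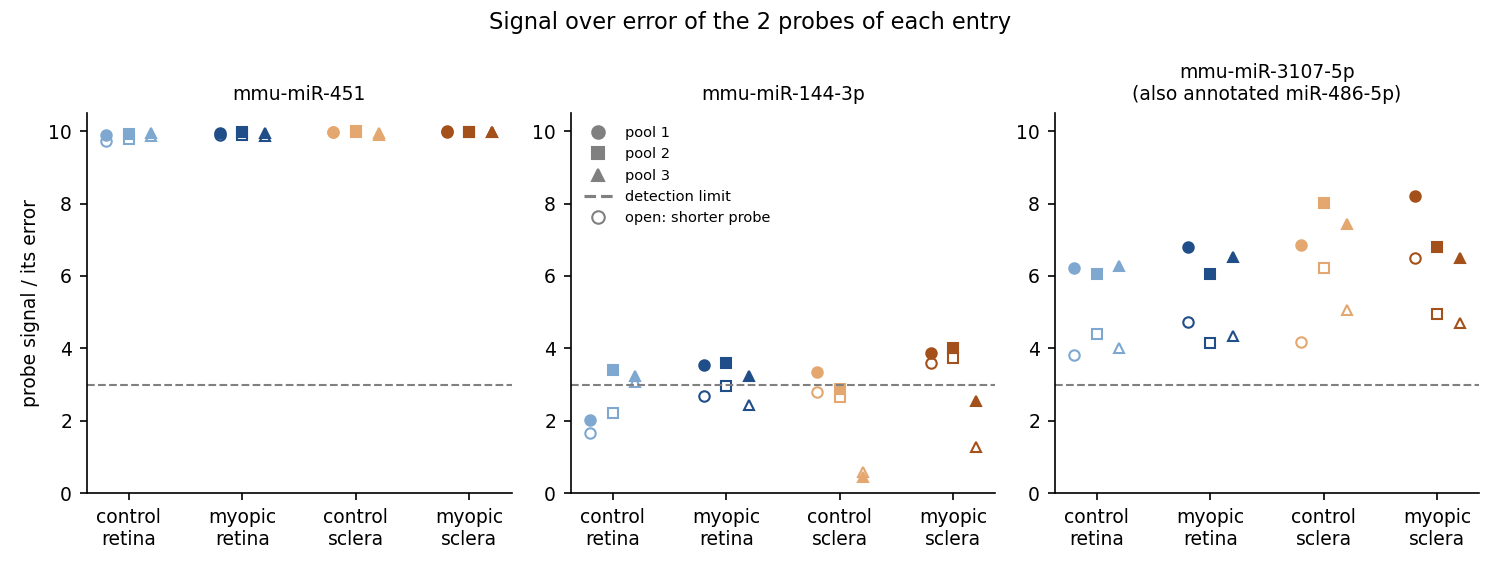
Signal of each probe divided by its error (y axis) on each array, for mmu-miR-451, mmu-miR-144-3p and mmu-miR-3107-5p. Open symbols are the shorter probe, marker shapes are pools, and the dashed line is the detection limit of 3. mmu-miR-144-3p lies around the limit in every group, with its highest value at 4.0 and its lowest at 0.45.

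None of the comparisons called mmu-miR-144-3p. On the log2 scale after quantile normalization, with undetected arrays at -1, its values were 2.92 and 4.32 on the detected control retina arrays and 1.09, 1.45 and 2.25 in the myopic retina. They were 4.22 on the detected control sclera array and 4.93 and 5.48 on the detected myopic sclera arrays. Close total gene signals took unlike log2 values here, as quantile normalization follows the rank of a miRNA on its array. A signal of 7.40 on the control sclera array of pool 1 became 4.22, and a signal of 7.41 on the myopic retina array of pool 3 became 2.25. The log2 fold change between sclera and retina was -1.34 in control eyes (SE 2.09, limma adjusted p = 0.59) and 1.54 in form-deprived eyes (SE 2.09, limma adjusted p = 0.52). For form deprivation it was -0.48 in the retina and 2.40 in the sclera, both with an SE of 2.09 and a limma adjusted p of 1. In the retina the sign turned with the scaling, to 0.89 at the 75th percentile and 1.11 without normalization. When the processed signals of all spots were averaged, detected or not, mmu-miR-144-3p was called as higher in the sclera of form-deprived eyes (log2 fold change 1.91, limma adjusted p = 0.0032) but not of control eyes (0.72, adjusted p = 0.18).

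The entry annotated to miR-486-5p, mmu-miR-3107-5p, was detected on all 12 arrays at a dim signal. Its total gene signal was 28.1, 29.0 and 27.6 in the control retina and 28.0, 36.1 and 29.1 in the myopic retina. The control sclera arrays had 29.2, 42.1 and 27.8, and the myopic sclera arrays 38.5, 31.5 and 21.2. The tissues overlapped on this scale. After quantile normalization the log2 values were 3.40 to 5.00 in the retina and 5.95 to 6.91 in the sclera, without overlap. All sclera arrays lay above all retina arrays for 24.8% of the 443 miRNAs tested. The log2 fold change of mmu-miR-3107-5p between sclera and retina was 1.76 in control eyes (SE 0.37, limma adjusted p = 0.0025) and 2.46 in form-deprived eyes (SE 0.37, limma adjusted p = 0.00026). Both passed the test, against 23.0% and 26.4% of all tested miRNAs called as higher in the sclera. With the 75th percentile scaling the log2 fold changes were 1.24 and 1.13 and both were called. Without normalization they were 0.20 and -0.064 and neither was called.

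For mmu-miR-3107-5p in form-deprived eyes, the log2 values of the myopic retina (3.63, 3.40 and 4.25) were below those of the control retina (3.85, 4.89 and 5.00) in 3 of 3 pairs, although the groups overlapped. The log2 fold change was -0.82 (SE 0.37, limma adjusted p = 0.18), and it was 0.020 with the 75th percentile scaling. It was -1.22 and passed the test without the control retina array of pool 1 (limma adjusted p = 0.020). Without that array the calls over all miRNAs in this comparison went from 1 to 122, and with weights for array quality to 146. In the sclera the log2 fold change was -0.11 (SE 0.37, limma adjusted p = 1). The direction in the myopic retina was therefore opposite to that of mmu-miR-451 (0.26) under quantile normalization, and neither change passed the test.

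Other miRNAs that red blood cells hold in large amounts are made in most cell types. Of 10 entries for miR-15b, miR-16, miR-22, miR-25, miR-92a and miR-363, 7 were tested. In control eyes 2 were called as higher in the sclera, both arms of miR-22, and 1 as lower, miR-16-1-3p (-4.35). miR-16-1-3p was undetected on all sclera arrays, so that its sclera values are the minimal signal. The median log2 fold change of the 7 was -0.60 against -0.30 over all 443 miRNAs. In form-deprived eyes 2 were called in each direction, miR-16-1-3p again among the lower, with a median of -0.63 against -0.36. Over all tested miRNAs, 50.6% were called in either direction in control eyes, and 23.0% as higher. In form-deprived eyes these shares were 58.9% and 26.4%. Without normalization 0 were higher and 5 lower in both kinds of eye, with miR-22-3p at 0.60 in both and miR-22-5p turned to -0.18 and -0.14. miR-16-5p, from a cluster shared with miR-15, had log2 fold changes of -0.90 (SE 0.11) and -0.99 (SE 0.11) between sclera and retina, which did not reach a 2-fold change. It was lower in the sclera under all 7 other scalings, where mmu-miR-451 was higher. With form deprivation 0 of these 7 miRNAs were called in either tissue.

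Most listed miRNAs of leukocytes and platelets, endothelium, muscle and mesenchyme were also higher in the sclera, while those of retinal neurons and pigment cells were lower. Of 6 tested entries of leukocytes and platelets, 4 were called as higher in the sclera in both kinds of eye. Over all tested miRNAs, 23.0% were called as higher in the control sclera and 26.4% in the myopic sclera. miR-223-3p, a miRNA of the myeloid lineage, had log2 fold changes of 4.84 (SE 0.43) and 6.14 (SE 0.43). miR-142-3p, found throughout blood cells, had 3.40 (SE 0.52) and 5.21 (SE 0.52). miR-150-5p of mature lymphocytes had 0.28 (SE 0.23) and -0.0069 (SE 0.23), and was not called. Without normalization miR-150-5p had -1.35 and -2.49. The summed signal of the leukocyte and platelet list was 96.9 to 158 on the retina arrays and 315 to 834 on the sclera arrays. 1 of its 7 entries, miR-150-3p, was undetected on all arrays of both tissues, and miR-142-5p was undetected on all retina arrays.

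Both arms of miR-126, which endothelial cells make from an intron of Egfl7, were called as higher in the sclera. For these and the entries below, the shares of all tested miRNAs called as higher after quantile normalization were 23.0% in control eyes and 26.4% in form-deprived eyes. miR-126-3p had log2 fold changes of 1.85 (SE 0.13) in control eyes and 1.55 (SE 0.13) in form-deprived eyes, and miR-126-5p had 2.14 (SE 0.39) and 3.12 (SE 0.39). Their summed signal was 0.195% to 0.232% of all mouse miRNA signal in the retina and 0.677% to 1.05% in the sclera. All 4 entries of skeletal muscle (miR-133a, miR-133b and miR-206) were called as higher in the sclera, with a summed share of 0.0336% to 0.0533% in the retina and 0.490% to 0.908% in the sclera. In the retina miR-133a-5p was undetected on every array. Among mesenchymal miRNAs (miR-199a, miR-199b and miR-214) 4 of 5 were higher in the sclera, and their summed share was at most 0.0566% in the retina and at least 3.82% in the sclera. miR-214-3p was undetected on all retina arrays. Without normalization, 3 of 6 leukocyte and platelet entries, 0 of 2 endothelial, 3 of 4 muscle and 4 of 5 mesenchymal entries were called as higher in the sclera of control eyes. Over all 443 miRNAs, 268 were called on that scale in control eyes, counting both directions, against 224 after quantile normalization. On that scale 1 leukocyte and platelet entry was called as lower in the sclera in both kinds of eye. In form-deprived eyes 1 mesenchymal entry was also called as lower. The part of these cell types in the values of mmu-miR-451 was not tested.

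The labels of the tissues could be checked with miRNAs of retinal neurons. All 8 entries of miR-9, miR-124 and the miR-183, miR-96 and miR-182 cluster were called as lower in the sclera in both kinds of eye, with median log2 fold changes of -4.22 and -4.07. Over all tested miRNAs, 50.6% were called in control eyes, 23.0% as higher and the rest as lower. In form-deprived eyes 58.9% were called, 26.4% as higher and the rest as lower. The summed share of the 8 entries was 34.3% to 38.5% in the retina and 0.420% to 3.59% in the sclera, so that none of the sclera pools was free of them. Pigment cell miRNAs made up 2.67% to 3.34% of the signal in the retina and 1.11% to 1.90% in the sclera, where 1 of 2 entries, miR-211-5p, was called as lower. With form deprivation 0 of the 34 tested entries of these 7 lists were called in the retina or the sclera by limma. In the retina 9 of the 34 had an unadjusted p under 0.05 (3 higher and 6 lower in myopic eyes), against 29.3% of all tested miRNAs. This split depended on the scaling, with 3 higher and 0 lower both at the 75th percentile and without normalization. In the sclera 4 of the 34 had an unadjusted p under 0.05, all lower in the myopic eyes, against 2.93% of all tested miRNAs. There were 5 such entries at the 75th percentile and 2 without normalization, again all lower.

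**Figure D5:**
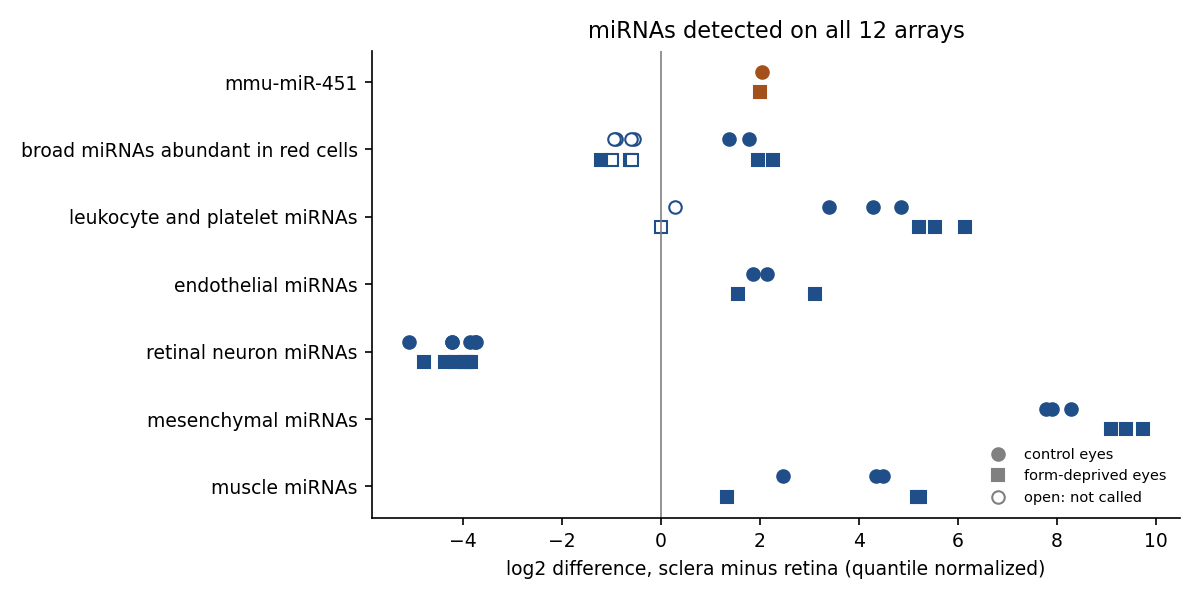
Log2 differences between sclera and retina (x axis, quantile-normalized) for mmu-miR-451 and for the entries of 6 lists that were detected on all 12 arrays. Circles are control eyes, squares form-deprived eyes, and open symbols did not pass the test. mmu-miR-451 lies at 2.04 and 2.00, far from the retinal neuron entries, which are all below 0. These values are within the range of the endothelial (1.55 to 3.12), muscle (1.33 to 5.23), leukocyte and platelet (-0.0069 to 6.14) and broad (-1.20 to 2.26) entries.

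The miRNAs with profiles closest to that of mmu-miR-451 were sought among the 245 others detected on all 12 arrays, by the root mean square of the log2 difference after each was centred on its mean. The 5 closest were miR-140-5p (0.19), miR-27b-3p (0.21), miR-22-3p (0.25), miR-720 (0.25) and miR-148a-3p (0.28), against a median of 1.1 over the 245. miR-140-5p, a miRNA of cartilage and connective tissue, lay between 8.49 and 8.87 in the retina and between 10.73 and 10.95 in the sclera. miR-27b-3p lay between 8.54 and 9.01 in the retina and between 10.73 and 11.02 in the sclera. miR-148a-3p lay between 7.70 and 8.39 in the retina and between 9.84 and 10.36 in the sclera. In control eyes the 5 had log2 fold changes between sclera and retina of 1.79 to 2.11. Without normalization 4 of them kept this direction, and miR-720 turned to -0.29 in control eyes and -0.60 in form-deprived eyes. mmu-miR-3107-5p was the 34th closest, with a root mean square of 0.52. This measure is dominated by the difference between the tissues, and mmu-miR-144-3p was not ranked, as it was undetected on 4 arrays.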

How the data were processed

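Retina and sclera of form-deprived and control eyes (4 groups, 3 arrays each) were profiled with single-colour Agilent mouse miRNA arrays. The authors deposited the scanner output, in which values are background-subtracted intensity without normalization between arrays (Feature Extraction 11.0.1.1 per the file headers, which differs from the version in the methods). The authors also deposited log2 values, quantile normalized with a minimal signal of 0.5; the submitters' processing notes name Partek 6.6. Their scale and direction were checked against the scanner files (437 mouse miRNAs, median 5.74 per array, median absolute difference of 0.12 from the values computed here), while the filter behind the 437 stays unknown.

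Total gene signals under 0.5 were set to 0.5, quantile normalized over 696 names and transformed to log2. Undetected miRNAs are listed by the software at 0.1 and stand at -1 on this scale. The 253 miRNAs without a detection on any array were dropped, and 443 were tested with limma 3.58.1 in R 4.3.3, in 1 fit of the 4 groups with 8 residual degrees of freedom. Two-sided p-values were adjusted over the 443 (Benjamini-Hochberg). Calls needed an adjusted p under 0.05 with at least a 2-fold change. The number of arrays limits the precision, and where pools share mice across eyes or tissues the p-values do not take this into account. The fit was tested on simulated data. Figures were drawn with matplotlib 3.10.9.

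The samples were grouped by their titles. The labels give the same mouse number to both eyes and both tissues, and this number equals the slide. Across the 246 miRNAs detected on all arrays, deviations from the group means correlated by 0.38, -0.46 and 0.59 between the eyes in the retina and by -0.14, -0.16 and -0.00 in the sclera. The pool number was run as a block.

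The miRNAs named are the members, the 5 with profiles closest to mmu-miR-451, and the arms of miR-142, miR-223, miR-150, miR-126 and miR-16 detected on all arrays. Other list entries and mmu-miR-3107-5p were named after their values were seen. Members and lists were chosen with earlier results of these data known. No arm of miR-1 in the muscle list matched an array name. Alternatives were other scalings, minimal signals and background corrections, filters on detection, a linear model without moderation, array weights, a fit of the compared groups only, the block, and leaving out each array.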

Additional observations from a re-analysis of the deposited data

How the results depend on the processing

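The call of mmu-miR-451 between sclera and retina held under 24 of 25 alternatives in control eyes (log2 fold change 0.88 to 2.19) and in form-deprived eyes (0.69 to 2.15). Without normalization 0 of the 2 members were called in either kind of eye, and with processed spot signals 2 were called in form-deprived eyes. When the fit held the replicate block (pool number), the log2 fold changes of mmu-miR-451 were 2.04 (SE 0.16, adjusted p = 2.6e-05) and 2.00 (SE 0.16, adjusted p = 2.5e-05), and the block changed no call of the entries described. Leaving out any 1 array left 1 member called between the tissues, and 0 with form deprivation. The retina and sclera arrays overlapped in mmu-miR-451 only without normalization, where 4 of 6 sclera arrays were above all retina arrays. Calls over all miRNAs ranged from 67 to 268 and from 75 to 308 between the tissues, against 224 and 261, from 0 to 146 in the myopic retina and from 0 to 1 in the myopic sclera.

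Several uncalled values turned sign. For mmu-miR-144-3p between the tissues these were 0.042 (normexp) and 0.72 (processed spot signals) in control eyes and -0.79 (no normalization) in form-deprived eyes. In the myopic retina they were 0.89 (75th percentile) and 1.11 (no normalization), and -1.95 to 0.71 without any 1 array. For mmu-miR-3107-5p they were 0.020 (75th percentile) and 0.13 (no normalization) in the myopic retina, 0.15 (array weights) in the myopic sclera with -0.30 to 0.17 without any 1 array, and 0.11 (75th percentile) and 0.26 (no normalization) for the change in the retina minus the change in the sclera. The called difference of this entry between the tissues in form-deprived eyes turned to -0.064 without normalization, and with normexp both tissue differences fell below 2-fold (0.29 and 0.32). With array weights its change in the myopic retina (-1.27) and the difference of that change from the change in the sclera (-1.42) were called. For mmu-miR-451 the change with form deprivation in the retina minus that in the sclera was -0.0053 (deposited values), -0.10 (normexp) and -0.11 (array weights), and -0.12 to 0.19 without any 1 array. The causes were not tested. Signal over background limits mmu-miR-144-3p most and mmu-miR-3107-5p next. mmu-miR-144-3p has no value with the filter on detection on all arrays.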
